A study of Mus musculus with 2 samples.

Results

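The collagens are the genes named by the pattern Col, a type number, a and a chain number, and 44 of the 34259 genes counted in these tumours carry such a name. They were followed in 2 libraries of total RNA from 4T1 tumours, which grow from a mouse mammary carcinoma line. The library called degrader came from tumour tissue of batch 1, collected after 3 injections of a degrader directed at an autophagy-related protein. The library called control came from control tumour tissue of batch 2. The labels do not state the compound's target, what the control animal received, the strain, sex and age of the mice, or how many tumours a library holds. With 1 library per group, every value below compares these 2 libraries and not the conditions, no test was possible, and batch and treatment cannot be told apart.

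Collagens are proteins of the extracellular matrix in which 3 chains wind around each other in a helix. Fibrillar types build the tensile fibres of connective tissue, with types I and III the most familiar and type V setting fibre width. Type IV forms the sheet of basement membranes under epithelium and around vessels, and type VI forms beaded filaments close to cells. Other collagens sit on fibre surfaces, span the membrane of epithelial cells, or anchor basement membranes to the tissue below. In mammary tumours much of the fibrillar collagen is made by fibroblasts, whereas vessel cells and the carcinoma cells themselves also make type IV.

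The degrader library held 3824323 counts and the control library 2252214, so that a single count was worth 0.259 and 0.449 CPM, where CPM is counts in 1000000 of the scaled library total. Collagen genes took 10094 counts, or 0.264% (0.259% to 0.269%), of the degrader library. In the control library they took 8311 counts, or 0.369% (0.361% to 0.377%). Summed collagen CPM was thus 0.700 times the control level in the degrader library (0.680 to 0.721). All ranges in parentheses are exact 95% intervals that cover counting error only and not the variation between tumours. In bulk RNA, fewer cells of a type and less RNA per cell cannot be told apart.

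Most collagens that could be measured were lower in the degrader library, and 4 went the other way. Of the 44 members, 18 averaged at least 10 CPM across the libraries. Their log2 ratio of CPM, degrader over control with 1 CPM added to both, had a median of -0.46, against 0.03 over all 8865 genes above the same minimum. It was below 0 in 14 of the 18, where 47.5% of all genes were below 0. At least 2-fold lower were Col8a1, Col15a1, Col5a2 and Col12a1, that is 4 of 18 or 22.2%, against 2.50% of all genes. At least 2-fold higher were Col17a1, Col6a2 and Col6a1, that is 3 of 18 or 16.7%, against 4.23% of all genes. Col17a1 and Col6a2 were under 10 CPM in the control library and passed the minimum only through the degrader library, so their place among the higher genes was partly set by that minimum. The counting interval of the ratio lay below 1 for 13 of the 18, above 1 for 4 and on both sides of 1 for Col5a1. Among all genes, 18.9% had an interval below 1 and 22.0% an interval above 1. An interval narrows as counts grow, and these shares were not matched for abundance.

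**Figure D1:**
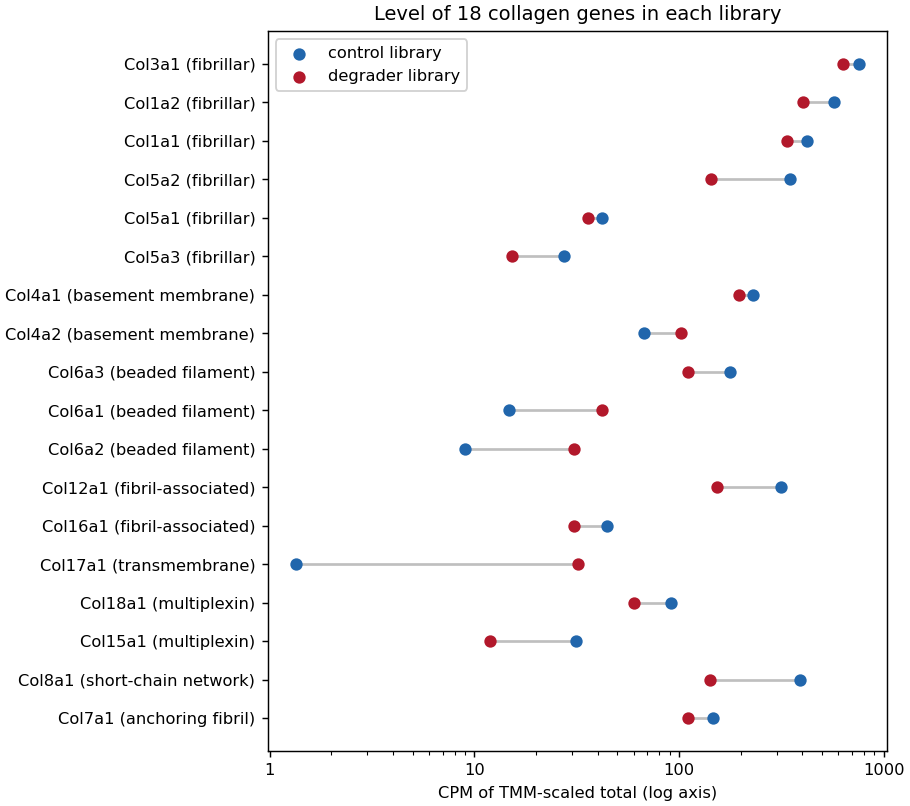
Each row is a collagen gene with a mean of at least 10 CPM, with its class in parentheses, and the points give its CPM (log axis) in the control library (blue) and the degrader library (red), 1 library each. The degrader point lies left of the control point in 14 of the 18 rows, and right of it for Col4a2, Col6a1, Col6a2 and Col17a1.

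The fibrillar class was lower throughout its measured members, but by unequal amounts. All 6 of them had a log2 ratio below 0, with a class median of -0.41, and 1, Col5a2, was past 2-fold. Col3a1 (ENSMUSG00000026043, mm10 chr1:45311538-45349706, plus strand) encodes the chain of type III and was the collagen with the most counts, 2436 in the degrader and 1689 in the control. These are 630.3 and 758 CPM, a ratio of 0.832 (0.781 to 0.885). Col1a1 (chr11:94936224-94953042, plus strand) and Col1a2 (chr6:4504814-4541544, plus strand) encode the chains of type I, the main collagen of scar and bone. Col1a1 had 1304 and 937 counts, or 337 and 420.5 CPM, with a ratio of 0.802 (0.737 to 0.874). Col1a2 had 1559 and 1278 counts, or 403 and 573 CPM, with a ratio of 0.703 (0.653 to 0.758). The abundant fibre chains were therefore each lower by less than 1.5-fold.

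Type V, which joins type I in mixed fibres, held measured chains with unequal ratios. Col5a2 (chr1:45374321-45503282, minus strand) had 554 counts in the degrader and 773 in the control library, or 143 and 347 CPM. It was 2.42-fold lower (2.17 to 2.70), although its neighbour Col3a1, 24614 bases away with no annotated gene between them, was 1.20-fold lower (1.13 to 1.28). Its main partner chain Col5a1 had 139 and 94 counts, or 36.0 and 42.2 CPM, a ratio of 0.853 whose interval of 0.652 to 1.12 includes 1. Col5a3, a chain of a rarer form of type V, had 59 and 61 counts, or 15.3 and 27.4 CPM, with a ratio of 0.558 (0.383 to 0.811). The remaining 5 fibrillar genes were below the minimum. Col11a1, a chain of the thin fibres of cartilage that is also described in activated tumour fibroblasts, had 1 count against 8. Its partner Col11a2 had 6 against 1, Col27a1 had 11 against 10 and Col24a1 6 against 5. Col2a1, the main collagen of cartilage, had no count in either library, which allows up to 0.776 CPM in the degrader and 1.35 CPM in the control library. The cartilage markers Acan and Matn1 were at 0 in both libraries as well.

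**Figure D2:**
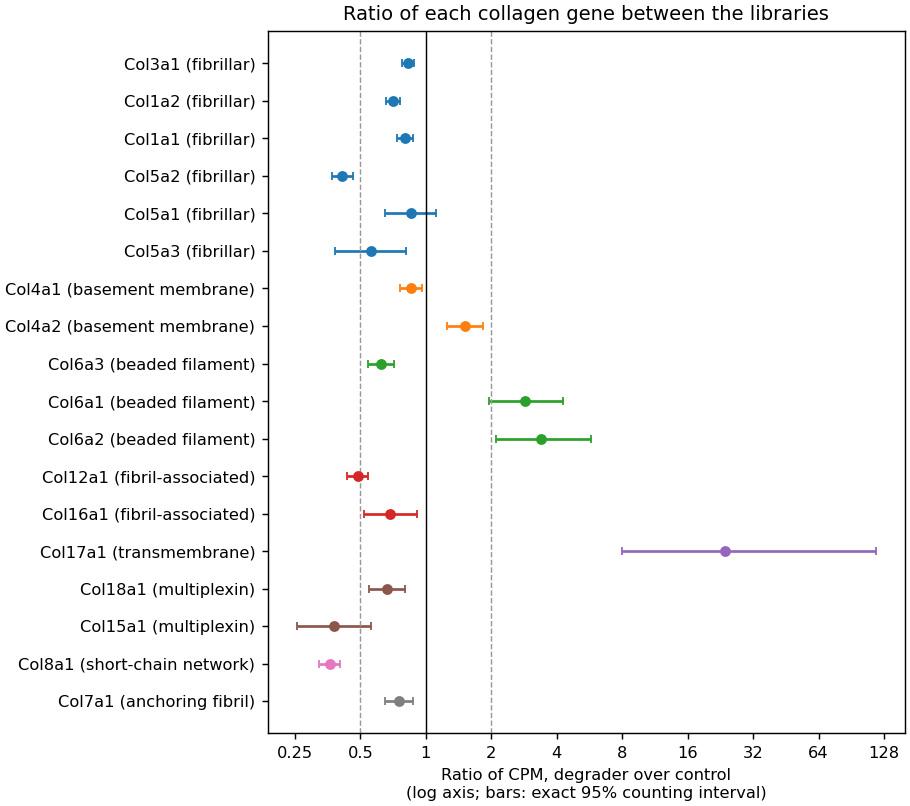
Ratio of CPM, degrader over control (log axis), for the 18 collagens with a mean of at least 10 CPM, coloured by class, with exact 95% counting intervals as bars, and dashed lines at 2-fold in each direction. The fibrillar, fibril-associated, multiplexin, short-chain and anchoring points lie left of 1, while the intervals of Col4a2, Col6a1, Col6a2 and Col17a1 lie right of it.

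The basement membrane class split between the chains of its commonest molecule, which joins Col4a1 and Col4a2 products. Col4a1 (chr8:11198423-11312826, minus strand) had 756 counts in the degrader and 511 in the control library, or 196 and 229 CPM, for a ratio of 0.853 (0.761 to 0.956). Col4a2 (chr8:11312805-11449287, plus strand) had 394 and 150 counts, or 102 and 67.3 CPM, a ratio of 1.51 (1.25 to 1.84). One chain was thus slightly lower and its partner higher in the degrader library. Within a library, where scaling cancels, there were 0.521 Col4a2 counts per Col4a1 count in the degrader (0.460 to 0.589) and 0.294 in the control library (0.243 to 0.353). The ratio between libraries, where gene length cancels as well, was 1.77 (1.42 to 2.23).

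These genes lie head to head and share a promoter, with annotated start sites 21 bases apart, so the promoter windows of both are shown. Each window holds 250 bases before and 50 after the start site on the strand of its gene, from RefSeq on GRCm38.p6 (mm10), and the windows overlap by 78 bases. Capitals here and below mark any match, on either strand, to GGGCGG (bound by Sp1), CCAAT (bound by NF-Y), TATAAA (the TATA box) or TGANTCA (bound by AP-1). No matches overlap in the windows shown. Such a match is a description of the letters and not a binding site.
Col4a1, chr8:11312777-11313076, minus strand: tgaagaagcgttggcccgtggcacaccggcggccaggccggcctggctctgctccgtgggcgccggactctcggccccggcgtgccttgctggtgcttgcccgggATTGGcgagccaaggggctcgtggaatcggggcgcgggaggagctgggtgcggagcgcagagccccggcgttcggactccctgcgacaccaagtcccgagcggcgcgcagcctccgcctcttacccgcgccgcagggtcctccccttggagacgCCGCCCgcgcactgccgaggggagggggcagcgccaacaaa
Col4a2, chr8:11312555-11312854, plus strand: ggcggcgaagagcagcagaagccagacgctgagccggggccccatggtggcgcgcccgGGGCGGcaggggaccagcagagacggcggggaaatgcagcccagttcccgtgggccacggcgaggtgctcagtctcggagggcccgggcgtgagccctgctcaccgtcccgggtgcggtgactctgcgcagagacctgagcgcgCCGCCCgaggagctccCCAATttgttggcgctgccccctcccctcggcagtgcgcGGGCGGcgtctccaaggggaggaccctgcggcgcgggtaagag
The Col4a1 window holds 1 GGGCGG and 1 CCAAT, the Col4a2 window 3 GGGCGG and 1 CCAAT, and neither holds TATAAA or TGANTCA. Among all 32544 promoter windows of the same length, 35.9% hold GGGCGG, 37.4% CCAAT, 13.6% TATAAA and 7.79% TGANTCA. Among the 15 measured collagens with a window, 10 hold GGGCGG, 8 CCAAT, 2 TATAAA and 1 TGANTCA, and the median G and C content was 60.3% against 53.0% for all windows. In all, 35 of the 44 members matched a window. The first exons of Col4a1 and Col4a2 share 22 bases on opposite strands. The labels do not say whether strand was used in counting, so reads from those bases may be placed with either gene.

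The other type IV chains were rare. Col4a5 and Col4a6, which lie head to head on chromosome X and build the membranes of skin appendages and smooth muscle, had 9 against 13 and 2 against 6 counts. Col4a3 and Col4a4, the chains of the kidney filter, had 1 against 0 and 0 against 2 counts. None of these 4 reached the minimum, and each interval includes 1. The 2 measured genes of the class therefore rest on the pair above.

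The beaded-filament class showed the sharpest contrast inside a molecule, since type VI is built from Col6a1, Col6a2 and Col6a3 products in equal number. Col6a1 (chr10:76708792-76726168, minus strand) had 163 counts in the degrader and 33 in the control library, or 42.2 and 14.8 CPM, and was 2.85-fold higher (1.95 to 4.28). Col6a2 (chr10:76595762-76623630, minus strand) had 118 and 20 counts, or 30.5 and 8.97 CPM, and was 3.40-fold higher (2.11 to 5.77). Col6a3 (chr1:90765923-90843971, minus strand), which carries the long N-terminal arm of the molecule, had 428 and 397 counts, or 111 and 178 CPM, and was 1.61-fold lower (1.40 to 1.85). The chains encoded on chromosome 10 thus differed in the same direction, and the chain encoded on chromosome 1 in the opposite one. Col6a1 and Col6a2 lie 85161 bases apart, with 1 annotated gene between them.

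Counted within each library, there were 0.381 Col6a1 counts per Col6a3 count in the degrader (0.316 to 0.457) and 0.0831 in the control (0.0564 to 0.119), a ratio between libraries of 4.58 (3.05 to 7.04). For Col6a2 over Col6a3 the values were 0.276 (0.223 to 0.339) and 0.0504 (0.0304 to 0.0789), a ratio of 5.46 (3.31 to 9.46). Between Col6a1 and Col6a2 themselves no difference was detectable at this depth, with 1.38 Col6a1 counts per Col6a2 count in the degrader (1.08 to 1.77) and 1.65 in the control library (0.919 to 3.03). The chains Col6a4, Col6a5 and Col6a6, which can stand in for the third chain, had at most 3 counts in either library.

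The promoter windows of the 3 chains are shown because the genes of chromosome 10 and of chromosome 1 went opposite ways. The marks are those described for type IV.
Col6a1, chr10:76725995-76726294, minus strand: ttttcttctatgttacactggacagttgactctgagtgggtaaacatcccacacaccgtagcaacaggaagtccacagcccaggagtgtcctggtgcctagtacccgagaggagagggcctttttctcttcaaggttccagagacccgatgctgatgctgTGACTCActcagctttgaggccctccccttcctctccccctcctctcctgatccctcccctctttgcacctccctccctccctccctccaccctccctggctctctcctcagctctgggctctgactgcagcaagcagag
Col6a2, chr10:76623581-76623880, minus strand: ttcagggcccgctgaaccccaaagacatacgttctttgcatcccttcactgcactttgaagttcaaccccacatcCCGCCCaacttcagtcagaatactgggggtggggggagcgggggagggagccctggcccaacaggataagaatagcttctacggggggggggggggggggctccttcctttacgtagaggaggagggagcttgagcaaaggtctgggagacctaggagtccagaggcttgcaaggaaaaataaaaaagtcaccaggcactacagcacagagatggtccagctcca
Col6a3, chr1:90843922-90844221, minus strand: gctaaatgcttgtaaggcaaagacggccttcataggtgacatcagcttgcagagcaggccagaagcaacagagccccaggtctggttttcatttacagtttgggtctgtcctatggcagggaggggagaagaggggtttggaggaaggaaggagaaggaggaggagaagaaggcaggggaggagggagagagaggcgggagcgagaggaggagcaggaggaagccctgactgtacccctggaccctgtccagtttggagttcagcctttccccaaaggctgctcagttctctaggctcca
The Col6a1 window holds 1 TGANTCA, the Col6a2 window 1 GGGCGG and the Col6a3 window no match to these motifs. The start site of the Col6a1 window lies 124 bases from the outermost start in GENCODE M21, and those of Col6a2 and Col6a3 fall on it.

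**Figure D3:**
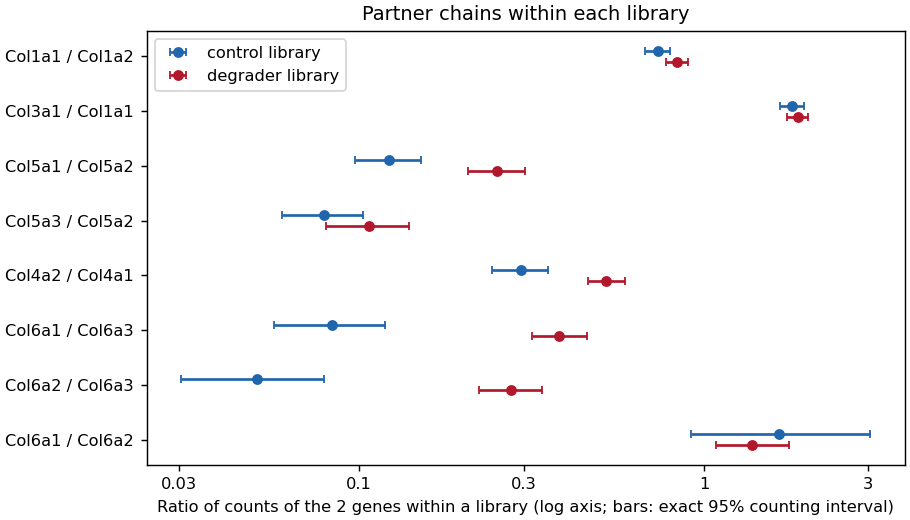
Counts of a collagen gene divided by those of a partner in the same library (log axis), in the control (blue) and the degrader library (red), with exact 95% counting intervals. The intervals of the libraries are apart for Col5a1 over Col5a2, Col4a2 over Col4a1, Col6a1 over Col6a3 and Col6a2 over Col6a3, and overlap for the other pairs.

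By the same measure the fibrillar partners were closer to each other. The ratio of Col1a1 to Col1a2 counts was 0.836 in the degrader (0.777 to 0.901) and 0.733 in the control library (0.673 to 0.798), which differ by 1.14 times (1.02 to 1.28). Col3a1 over Col1a1, chains of types often laid down together, was 1.87 (1.75 to 2.00) and 1.80 (1.66 to 1.95), a ratio between libraries of 1.04 (0.932 to 1.15). Type V was the exception, with 0.251 Col5a1 counts per Col5a2 count in the degrader (0.207 to 0.303) and 0.122 in the control (0.0971 to 0.151), a ratio of 2.06 (1.54 to 2.77). For Col5a3 over Col5a2 the interval between libraries, 0.911 to 2.00, includes 1.

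The transmembrane class held the largest difference of the family. Col17a1 (ENSMUSG00000025064, chr19:47646344-47692094, minus strand) encodes a collagen of hemidesmosomes, the junctions that fix basal keratinocytes and other basal epithelial cells to their basement membrane. It had 124 counts in the degrader and 3 in the control library, or 32.1 and 1.35 CPM, for a ratio of 23.8 (7.97 to 117). Col23a1, a transmembrane collagen also found in skin, was below the minimum with 21 against 2 counts, a ratio of 6.05 (1.48 to 53.3). Col13a1, found at adhesions and neuromuscular junctions, had 7 against 3 counts, and Col25a1, needed for motor innervation of muscle, had 1 against 4. The class was therefore higher through Col17a1 and Col23a1, and the others were too rare to show a direction.
Col17a1, chr19:47691993-47692292, minus strand: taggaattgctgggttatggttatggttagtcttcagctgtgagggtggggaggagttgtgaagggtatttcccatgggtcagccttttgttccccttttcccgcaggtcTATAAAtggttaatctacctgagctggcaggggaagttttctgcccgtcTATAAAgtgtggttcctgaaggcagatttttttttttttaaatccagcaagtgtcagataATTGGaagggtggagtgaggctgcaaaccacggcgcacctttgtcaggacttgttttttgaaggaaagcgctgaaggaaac
This window is shown as that of the collagen farthest from a ratio of 1, and it holds 2 TATAAA and 1 CCAAT. The only other measured collagen whose window holds TATAAA was Col3a1.

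Markers of basal epidermis, where Col17a1 is typical, were higher in the same library. Of 12 such markers, 11 were measured, all with a log2 ratio above 0 and 5 at least 2-fold higher, and their summed level was 2777 CPM in the degrader and 1208 CPM in the control library. Not all of these ratios left out 1. Dst and Lama3, given after their values were seen, had ratios of 1.04 (0.864 to 1.25) and 1.12 (0.922 to 1.37). Krt14 and Krt5, the keratins of basal cells, were 8.09-fold (7.15 to 9.17) and 199.5-fold (68.1 to 969) higher. Krt15, another basal keratin, had 160 counts against 0. It was 30.8-fold higher when the control library is set at 3 counts, and the lower limit of its exact interval was 24.7-fold. Krt15 and Dsg3 were at 0 in the control library, and none of the 12 was at 0 in the degrader library. Krt5, Krt15 and Trp63, which are 3 of the 5 higher genes, were under 10 CPM in the control library and passed the minimum only through the degrader library. The part of epidermal cells in the Col17a1 value was not tested.

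Col7a1, the anchoring fibril collagen that ties the same epidermal membrane to the dermis, did not follow Col17a1. It had 427 counts in the degrader and 328 in the control library (chr9:108953586-108984875, plus strand), or 110 and 147 CPM, and was 1.33-fold lower (1.15 to 1.54). Without Col7a1 and Col17a1, the median log2 ratio of the 16 other measured collagens was -0.52.

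The measured short-chain, fibril-associated and multiplexin collagens, 5 genes in all, had counting intervals below 1. Col8a1 (chr16:57624258-57754737, minus strand), a short-chain collagen of vessel walls and of the membrane under endothelium, had the lowest log2 ratio of the measured collagens, -1.46. It had 545 counts in the degrader and 871 in the control library, or 141 and 391 CPM, and was 2.77-fold lower (2.49 to 3.09). Its partner Col8a2 had 2 against 1 count, and Col10a1, the collagen of hypertrophic cartilage, 0 against 1. The class thus rests on 1 gene.

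Among the fibril-associated collagens, Col12a1, which bridges type I fibres under tension, had 593 and 702 counts, or 153 and 315 CPM, and was 2.05-fold lower (1.84 to 2.29). Col16a1, found on thin fibres and near basement membranes, had 118 and 99 counts, or 30.5 and 44.4 CPM, and was 1.46-fold lower (1.10 to 1.92). Col14a1, a marker of dermal fibroblasts that was under the minimum, had 12 against 18 counts and a ratio of 0.384 (0.169 to 0.843). The named genes of this class lay on the same side of 1. The type IX chains of cartilage, Col9a1, Col9a2 and Col9a3, had at most 4 counts in either library, and Col19a1, Col20a1 and Col22a1 at most 2.

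The multiplexins Col15a1 and Col18a1 lie in vascular and epithelial basement membranes, and fragments cut from them, such as endostatin from Col18a1, limit vessel growth. Col15a1 had 46 and 70 counts, or 11.9 and 31.4 CPM, and was 2.64-fold lower (1.79 to 3.92). Col18a1 had 233 and 203 counts, or 60.3 and 91.1 CPM, and was 1.51-fold lower (1.25 to 1.83). Both members of the class were thus lower, Col15a1 past 2-fold.

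The measured markers of vessel cells were lower in the same library, while ratios of those below the minimum lay on both sides of 1. Of 9 endothelial markers, 8 were measured, all with a log2 ratio below 0 and 4 at least 2-fold lower, and they summed to 174 CPM in the degrader and 352 CPM in the control library. The angiopoietin receptor Tek and the secreted vessel factor Egfl7 had ratios of 0.563 (0.470 to 0.674) and 0.519 (0.396 to 0.679). The junction genes Cdh5 and Cldn5 had ratios of 0.315 (0.232 to 0.425) and 0.283 (0.172 to 0.456). Cldn5, Esam and Kdr, of which Cldn5 and Esam are among the 4 lower genes, were under 10 CPM in the degrader library and passed the minimum only through the control library. Tie1, the endothelial marker below the minimum, had 21 against 7 counts, a ratio of 1.73 (0.708 to 4.82). Of 8 markers of pericytes and smooth muscle, 3 were measured and lower, and the list summed to 131 CPM against 313 CPM. Among them the contractile genes Tagln and Acta2 had ratios of 0.243 (0.204 to 0.290) and 0.523 (0.404 to 0.677). Below the minimum, and given after their values were seen, Notch3 had 54 against 6 counts, a ratio of 5.19 (2.24 to 14.8). Des had 45 against 15, a ratio of 1.73 (0.946 to 3.34), and Cspg4 6 against 20, a ratio of 0.173 (0.0568 to 0.447). Cnn1 and Myh11 had ratios of 0.231 (0.0528 to 0.800) and 0.577 (0.133 to 2.51). No marker of either list was at 0. Their part in the values of Col8a1, Col15a1, Col18a1 and type IV was not tested.

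**Figure D4:**
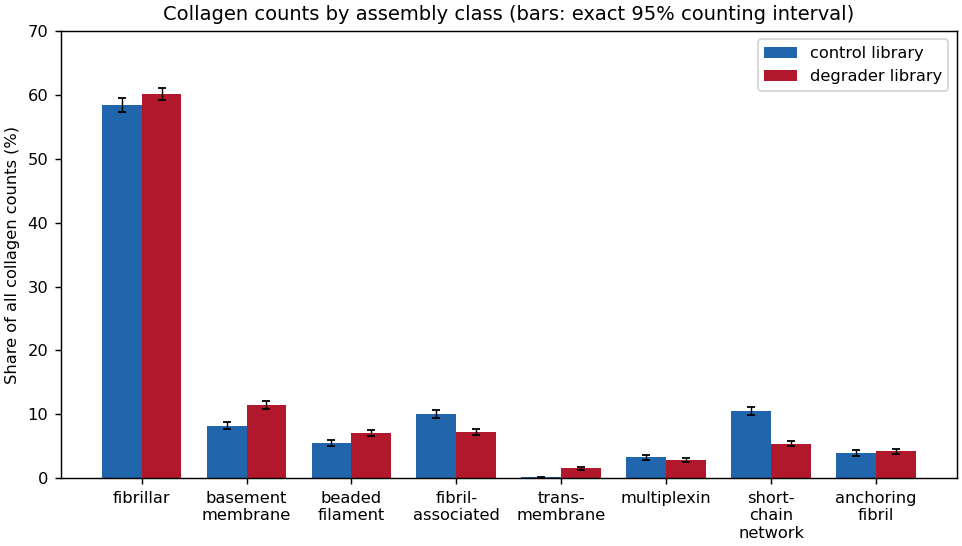
Share of all collagen counts of a library (%) that fell on each assembly class, in the control (blue, of 8311 counts) and the degrader library (red, of 10094 counts), with exact 95% counting intervals. Fibrillar genes took the largest share in both libraries, and the short-chain share was 10.5% in the control and 5.42% in the degrader library.

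Shares of the collagen counts do not depend on library scaling. Fibrillar genes took 60.2% of collagen counts in the degrader (59.2% to 61.1%) and 58.4% in the control library (57.4% to 59.5%). Basement membrane genes took 11.5% (10.9% to 12.2%) and 8.21% (7.62% to 8.82%), and beaded-filament genes 7.07% (6.58% to 7.59%) and 5.45% (4.97% to 5.96%). Both were larger shares of the degrader library, while their summed CPM differed little, with ratios of 0.982 (0.893 to 1.08) and 0.909 (0.807 to 1.02). The short-chain share was 5.42% (4.99% to 5.88%) and 10.5% (9.85% to 11.2%), and the fibril-associated share 7.24% (6.74% to 7.76%) and 10.01% (9.37% to 10.7%). Multiplexins took 2.76% and 3.28%, and the anchoring fibril gene 4.23% and 3.95%. Transmembrane collagens took 1.52% (1.29% to 1.77%) and 0.144% (0.0746% to 0.252%). Without Col3a1, the fibrillar share in the degrader library was 0.994 times that in the control library.

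Where reads cover whole transcripts, levels of different genes can be set side by side only per length. Per kilobase of annotated exon, Col3a1 stood highest in both libraries, at 64.2 CPM per kilobase in the degrader and 77.2 in the control library. Col1a1 came next at 51.4 and 64.1. Below it the order differed, since the control library held 49.9 of Col8a1 and 46.2 of Col1a2, and the degrader library 32.5 of Col1a2, 26.2 of Col4a1 and 18.0 of Col8a1. Per kilobase, Col6a1 and Col6a3 stood at 9.63 and 9.26 in the degrader library, and at 3.38 and 14.9 in the control library. These levels assume that reads cover whole transcripts, which the labels neither state nor deny for the kit. If counts do not grow with length, the order by CPM applies, in which Col1a2 stood above Col1a1 in both libraries.

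The 26 collagens under the minimum had few counts. No count among them was above 21, and 20 of them had fewer than 10 counts over both libraries. Together they had 98 counts in the degrader and 92 in the control library, which makes a CPM ratio of 0.614 (0.457 to 0.825), or 0.493 (0.359 to 0.676) without Col23a1. The measured member nearest to the minimum was Col17a1 with a mean of 16.7 CPM, and the nearest below it was Col14a1 with 5.59 CPM. The other members not yet named, Col26a1 and Col28a1, had 1 against 0 and 5 against 2 counts. At least 1 count was seen for 39 members in the degrader and 40 in the control library, although the degrader library was deeper. Over all 34259 genes, 17987 and 16634 had at least 1 count. At the depth of the control library, 35.3 members would be expected to be seen in the degrader library.

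Enzymes that modify collagen chains in the cell differed in both directions. Of 16 genes of prolyl and lysyl hydroxylation, 12 were measured, and 1 was past 2-fold, on the lower side, with a median log2 ratio of 0.01. P4hb and Ppib, a subunit of prolyl 4-hydroxylase and a proline isomerase, were the most abundant, with ratios of 1.11 (1.02 to 1.21) and 1.10 (1.00 to 1.21). P4ha1 and P4ha2, other subunits of prolyl 4-hydroxylase not named by the rule, had ratios of 0.554 (0.446 to 0.687) and 1.01 (0.622 to 1.67). Plod2, the lysyl hydroxylase that sets the stable form of crosslinks and is induced by hypoxia, was 2.89-fold lower (2.19 to 3.83), with counts of 84 and 140. Fkbp10, a chaperone that acts with Plod2, was 1.91-fold lower (1.28 to 2.86). Chaperone and export genes had a median of -0.24 over 8 measured of 9, none past 2-fold. The general chaperones Hspa5 and Pdia3 had ratios of 1.68 (1.59 to 1.78) and 1.23 (1.14 to 1.33). Serpinh1, a chaperone of the same list not named by the rule, had a ratio of 0.807 (0.702 to 0.928). Sec24d, a coat protein of the vesicles that carry procollagen, had a ratio of 0.555 (0.460 to 0.668).

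Outside the cell, genes that process and crosslink fibres lay on both sides of 1. The list for propeptide processing and crosslinking had a median of -0.29 over 10 measured of 14, of which none was higher and 2 were lower by at least 2-fold. These were Lox and Loxl2, the lysyl oxidases that start crosslinks, at 2.43-fold (1.95 to 3.02) and 2.10-fold (1.59 to 2.79) lower. Bmp1, which cuts the C-terminal propeptide of fibrillar chains, had a ratio of 0.996 (0.870 to 1.14), and the crosslinking transglutaminase Tgm2 had 1.20 (1.02 to 1.41). The degradation list had 5 of 9 measured, with 1 higher and 2 lower. Mmp9, a gelatinase, and Mmp13, a collagenase, had ratios of 0.216 (0.200 to 0.234) and 0.448 (0.415 to 0.484).

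Receptors for collagen had a median of -0.37 over 6 measured of 10, none past 2-fold. The integrin chains Itgb1, Itga2 and Itga1, which pair to bind collagen, had ratios of 0.772 (0.724 to 0.823), 0.526 (0.449 to 0.615) and 0.527 (0.379 to 0.731). Proteins that organise fibres had a median of -0.34 over 7 measured of 10, with 1 higher and 1 lower. Fn1 (fibronectin) and Sparc, which binds collagens, had ratios of 0.749 (0.718 to 0.781) and 0.656 (0.614 to 0.701). Thbs1 (thrombospondin) was 2.36-fold lower (2.12 to 2.63), whereas Dcn (decorin), a proteoglycan that binds type I fibres, was 2.42-fold higher (1.97 to 2.98). Fibre partners thus lay on both sides of 1.

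**Figure D5:**
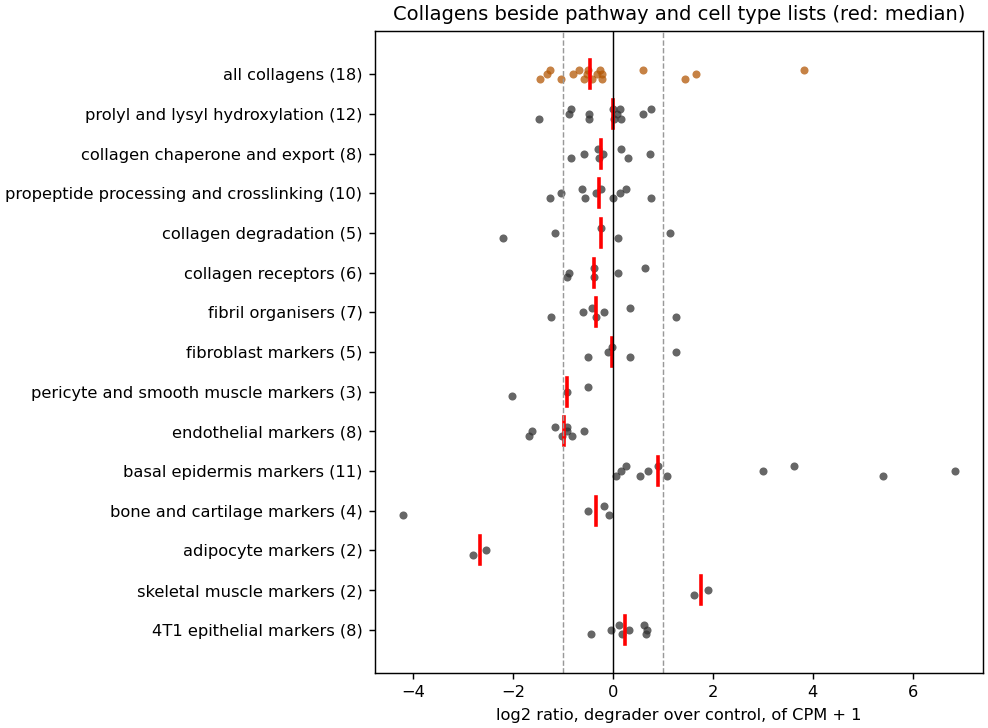
Log2 ratio of CPM + 1, degrader over control, for the measured genes (points, number in parentheses) of the collagens and of each other list, with the median in red and dashed lines at 2-fold. The collagen median of -0.46 lies left of 0, as do those of endothelial and pericyte markers, while basal epidermis markers lie right of it with a median of 0.90.

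Fibroblast markers lay on both sides of a ratio of 1. Of 11 markers, 5 were measured, 3 with a log2 ratio below 0 and 2 above, with a median of -0.01, and 1, Dcn, was at least 2-fold higher. Their summed level was 350.3 CPM in the degrader and 254 CPM in the control library, and no marker was at 0. Dcn had 486 against 116 counts. Lum (lumican), a regulator of fibre spacing, had a ratio of 1.27 (1.05 to 1.55), and Mfap5, a microfibril protein, 0.692 (0.484 to 0.991). The other measured markers, Thy1 and Pdgfrb, had ratios of 0.991 (0.785 to 1.26) and 0.929 (0.603 to 1.45). Below the minimum, and given after their values were seen, Pdgfra had a ratio of 2.67 (1.38 to 5.69). Twist2, Fbln1 and Dpt had ratios of 1.77, 1.61 and 1.52, and Pi16 and Fap 0.721 and 0.432, all with intervals that include 1. The part of fibroblast number in the collagen values was not tested.

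Markers of other tissues that make collagens also differed between the libraries. Bone and cartilage markers summed to 113 CPM in the degrader and 249 CPM in the control library, with 4 of 11 measured. Only 1, the bone sialoprotein gene Ibsp, was past 2-fold, with 21 against 263 counts, or 5.43 and 118 CPM. Ibsp made up most of the gap between the sums and passed the minimum only through the control library. Sox9 and Runx2, transcription factors of cartilage and bone, had ratios of 0.949 (0.755 to 1.20) and 0.704 (0.524 to 0.947). The defining bone markers Sp7 and Bglap were at 0 in both libraries, and Alpl was at 0 in the degrader library. Adipocyte markers summed to 97.5 CPM and 593 CPM, with 2 of 7 measured, Fabp4 and Cfd, at ratios of 0.170 (0.146 to 0.197) and 0.140 (0.112 to 0.172), and Lep at 0 in the degrader library. Skeletal muscle markers ran the other way at 73.5 CPM and 30.5 CPM, with 2 of 7 measured and none at 0. These were Tnnt3 and Acta1, at ratios of 4.16 (2.37 to 7.88) and 3.52 (1.79 to 7.70), and both passed the minimum only through the degrader library. Below the minimum, Ckm had 19 against 17 counts, a ratio of 0.644 (0.317 to 1.32). Tnnc2, Mylpf, Ttn and Myh4 had ratios above 1, and among them only the interval of Tnnc2 left out 1. The epithelial markers listed for a 4T1 tumour, 8 of 8 measured, summed to 5336 CPM and 4762 CPM, and they do not identify the cell line. Among these markers Krt8 and Krt18 had ratios of 1.08 (1.04 to 1.12) and 1.13 (1.08 to 1.18), and Cldn3 and Krt19 ratios of 1.60 (1.33 to 1.94) and 1.58 (1.30 to 1.94). The part of these tissues in the collagen values was not tested.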

How the data were processed

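Bulk RNA sequencing was deposited for 2 libraries, 1 per group, each made from 1.5 µg of total RNA with an AccuraCode kit, per the labels' protocols. The authors deposited counts per gene, on build mm10 per the submitters' processing notes. No label states the aligner, the counter or any use of strand or molecular identifiers. The deposited table has 34290 rows. Its first 31 rows, autophagy genes of which 30 hold a value that is not whole, are on another scale and were left out. A column was tied to a sample through the sheet deposited for that sample, and 7 other columns of values were not used. In place of the planned label of counts, the deposited columns were recorded as of mixed unit because of these rows.

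Scaling used TMM (trimmed mean of M values), leaving out 30% of genes at each end by log ratio and 5% by abundance, which gave factors of 1.01 and 0.989. Ratios were computed from CPM without a pseudocount, log2 ratios with 1 CPM added, which understates low genes. Intervals are exact conditional binomial for ratios, exact conditional for ratios of partner chains and Clopper-Pearson for shares, at 95%. Reads are not known to be independent molecules, so intervals cover counting error only. A count of 0 was bounded at 3 counts per library. Classes follow the textbook assembly form. Named genes were every collagen with a mean of at least 10 CPM, or with an interval leaving out 1 and at least 10 counts, and from each other list the 2 most abundant measured members and the 2 with the largest absolute log2 ratio. Other collagens are named to account for every member. A gene that the rule names among the other lists is not reported here. The members and lists were chosen with earlier results of these data known. Coordinates and exon lengths are from GENCODE M21 (mm10). Scaling and call rules were tested on simulated data that held counting error only. With no variation between tumours in them, such data cannot show whether the calls here would repeat. Python 3.11.15, numpy 2.4.6, pandas 2.3.3, scipy 1.17.1 and matplotlib 3.10.9 were used. Alternatives were 4 other scalings, 2 pseudocounts, 3 minimums, a 1.5-fold threshold, the second deposited sheet, and keeping the 31 rows.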

Additional observations from a re-analysis of the deposited data

How the results depend on the processing

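No replicate could be left out, and no paired analysis was possible because each group has 1 library. The median of -0.46 and the fibrillar median kept their sign and moved by less than 0.1 under every alternative run, and the second sheet moved no share or partner ratio. With a pseudocount of 5 CPM the beaded-filament median was 1.25 against 1.45 as reported, and the multiplexin median -0.83 against -0.96. The log2 ratio of Col17a1 was then 2.55 against 3.82. At a minimum of 1 CPM, 9 of 30 collagens were at least 2-fold lower, against 4.86% of all genes. With no minimum 9 of 43 were, against 4.01% of all genes. The basement membrane median, 0.18 as reported, turned to -0.63 and -0.58 in these settings through the rare chains. With no minimum the beaded-filament median was 0.31, and the fibril-associated median was -0.65 against -0.78 as reported. With a minimum of 50 CPM, Col6a1, Col6a2 and Col17a1 fall out, and 0 of 11 collagens were at least 2-fold higher, against 2.42% of all genes. At the same minimum 3 of 11 were at least 2-fold lower, against 2.30% of all genes. At 1.5-fold, 7 of 18 were lower, against 9.02% of all genes. The remaining values were chosen after seeing the data. Per kilobase of exon, the ratio of shares, degrader over control, was 1.00 for fibrillar and 1.60 for beaded-filament genes, against 1.03 and 1.30 from counts. Without its most abundant member the ratio was 0.994 for fibrillar (which turns the direction), 1.98 for basement membrane, 4.18 for beaded-filament, 0.850 for fibril-associated, 2.69 for transmembrane, 0.540 for multiplexin and 0.779 for short-chain genes. Depth limits the 26 rare collagens, whose intervals include 1 except those of Col11a1, Col14a1 and Col23a1.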

Other observations

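Some genes below the minimum of 10 CPM bear on the collagens and were chosen after their values were seen. P3h2, the prolyl 3-hydroxylase that acts on type IV collagen, had 33 counts in the degrader and 3 in the control library. Adgrg1, a receptor for type III collagen, had 43 against 10. Pdgfra, a receptor of fibroblasts, had 51 against 11. Col11a1, with 1 against 8 counts, had a ratio of 0.0721 and an interval of 0.00162 to 0.538. The gelatinase Mmp2, not named by the rule, was 2.26-fold higher (1.62 to 3.19), and its activator Mmp14 had a ratio of 1.08 (0.943 to 1.23), whereas Mmp9 was lower. The collagen receptor Ddr2 had a ratio of 1.57 (1.20 to 2.07), against 0.526 for Itga2. With 1 library per group none of these has a replicate check.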
